A study of Homo sapiens with 15 samples.

Results

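The genes described here are those that carry zinc and copper ions through human cells: the 10 SLC30 zinc exporters, the 14 SLC39 zinc importers, the metal-sensing transcription factor MTF1, the copper ATPases ATP7A and ATP7B, the copper importers SLC31A1 and SLC31A2, and the copper chaperones ATOX1, CCS and COX17. They were chosen by gene family and known role, make up 32 of the 23346 gene symbols counted, and all 32 were found; the metallothioneins, which bind both metals, were kept apart as a companion list. The cells were H9, an established line of human embryonic stem cells, taken through differentiation to definitive endoderm, the layer from which gut, liver and pancreas form. PolyA RNA of the bulk cultures was read on each day from 0 to 4, in 3 libraries per day numbered 1, 2 and 4. Day 0 cells were undifferentiated and had been kept in E8 medium. Day 1 cells had spent their first day in Advanced RPMI with activin A, which signals as Nodal does, together with CHIR99021, an inhibitor of GSK3 that switches on Wnt signalling. Cells of days 2, 3 and 4 went on in the same base medium with activin A alone. All libraries come from this single cell line. Every comparison with day 0 is also a comparison between culture media, and day and medium cannot be told apart. The metal content of the media is not given in the sources used. The labels do not say that the 3 libraries of each day are separate cultures; the p-values therefore cover only the spread among these libraries, and this may be technical. RNA was taken from whole cultures, in which fewer cells that use a gene and less RNA per cell cannot be told apart.

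Zinc exporters of the SLC30 family (ZnT proteins) move zinc out of the cytosol, across the plasma membrane or into vesicles and organelles, and importers of the SLC39 family (ZIP proteins) move it into the cytosol. When cytosolic zinc is high, MTF1 binds metal response elements in promoters and raises the transcription of metallothioneins and of SLC30A1. Copper enters through SLC31A1 and is handed by small chaperone proteins to the ATPases ATP7A and ATP7B, to superoxide dismutase or to mitochondria. The ATPases load copper onto enzymes in the secretory pathway and pump out an excess; ATP7B is the copper ATPase of the adult liver, an organ of endodermal origin.

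3 promoters are shown because MTF1 is known to act on the first and the last of them and because SLC30A4, the second, had the largest fitted increase by day 4. They come from RefSeq on the build GRCh38.p14, run from 250 bases before to 50 bases after the transcription start and are written 5′ to 3′ on the gene's own strand. Capitals mark each match to the core of the metal response element, searched as TGCACNC and TGCGCNC (7 letters) on both strands with overlapping matches counted.
SLC30A1 (chr1:211579112-211579411, minus strand): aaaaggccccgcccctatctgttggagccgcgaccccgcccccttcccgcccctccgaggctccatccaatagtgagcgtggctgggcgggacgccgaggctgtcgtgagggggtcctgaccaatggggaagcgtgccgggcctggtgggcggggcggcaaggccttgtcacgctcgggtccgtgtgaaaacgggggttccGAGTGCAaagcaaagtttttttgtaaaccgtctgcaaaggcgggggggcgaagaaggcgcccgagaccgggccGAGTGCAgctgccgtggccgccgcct
SLC30A4 (chr15:45522706-45523005, minus strand): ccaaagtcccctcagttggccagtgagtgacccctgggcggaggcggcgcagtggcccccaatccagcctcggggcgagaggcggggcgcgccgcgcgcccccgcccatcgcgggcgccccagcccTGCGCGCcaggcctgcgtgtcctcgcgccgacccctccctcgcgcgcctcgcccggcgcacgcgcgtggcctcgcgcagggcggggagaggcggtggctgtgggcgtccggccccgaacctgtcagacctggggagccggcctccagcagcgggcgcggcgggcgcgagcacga
MT1X (chr16:56682220-56682519, plus strand): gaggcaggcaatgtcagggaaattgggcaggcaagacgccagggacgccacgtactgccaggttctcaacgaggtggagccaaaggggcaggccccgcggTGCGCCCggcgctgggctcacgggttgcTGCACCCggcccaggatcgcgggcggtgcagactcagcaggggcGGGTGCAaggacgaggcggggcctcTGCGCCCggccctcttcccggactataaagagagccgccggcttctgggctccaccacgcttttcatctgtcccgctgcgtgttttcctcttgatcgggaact
The SLC30A1 window held 2 cores, which started 49 bases before and 24 bases after the start base, both on the opposite strand. SLC30A4 had 1 core, 124 bases before the start, and the metallothionein promoter of MT1X had 4, at 150, 122, 78 and 53 bases before it. RefSeq promoters were held for 28 of the 32 genes; of their 40 promoters 19 contained a core (47.5%), compared with 10377 of all 35116 promoters (29.6%), and 5 of the 5 metallothionein promoters did. Counted by gene, 16 of 28 (57.1%) had a core in at least 1 promoter, against 9128 of 27305 genes (33.4%). These shares were not matched for base composition, and a match of 7 letters is a description of the sequence and no evidence of binding.

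The libraries held 54723184 to 145857940 counts, so a floor of 3 counts corresponds to 0.0204 to 0.053 CPM. CPM is the count scaled to a common library size, here with TMM factors, and the floor covers counting error only. The defining markers followed the labels: the summed CPM of POU5F1, SOX2 and NANOG was 648 to 1015 on day 0 and 35.5 to 190.2 on day 4. The 5 endoderm markers SOX17, FOXA2, CXCR4, GATA6 and CER1 together had 26.2 to 33.1 CPM on day 0, 4224 to 6145 CPM on day 2 and 868 to 4303 CPM on day 4. CER1 weighed most in the day 2 sums, with day means of 4537 CPM on day 2 and 1679 CPM on day 4. GATA6 also had a higher mean on day 2 (635 CPM) than on day 4 (464 CPM). SOX17, FOXA2 and CXCR4 had means of 82.9, 19.7 and 26.0 CPM on day 2 and 175, 157 and 272 CPM on day 4. Replicate 1 of day 3 and replicate 1 of day 4 stood apart, with endoderm marker sums of 1030 and 868 CPM beside 2969 to 5529 CPM in the other 4 libraries of those days. CER1, GATA6 and CXCR4 were lowest in replicate 1 on both days. FOXA2 was not: in replicates 1, 2 and 4 it had 252, 116 and 48.2 CPM on day 3 and 171, 210 and 89.6 CPM on day 4. SOX17 was lowest in replicate 1 on day 4 alone, with 121, 103 and 224 CPM on day 3 and 74.5, 204 and 246 CPM on day 4. Results on days 3 and 4 that rest on these replicate 1 libraries are given with and without them. Libraries also differed in how strongly GC-rich transcripts were represented. The median log2 deviation of the genes in the highest quartile of GC content, less that of the lowest quartile, was −0.868, −0.884 and 0.565 in the day 0 libraries 1, 2 and 4. It was 0.275, −0.106 and 0.227 in the day 1 libraries, −0.784, −0.579 and 0.565 in the day 2 libraries, −0.198, −0.28 and 0.744 in the day 3 libraries and −0.354, 0.715 and 0.877 in the day 4 libraries. Of the 10 transporter genes in the lowest quartile of GC content, the library of a day with the highest such balance gave the lowest value on 36 of 50 gene-days. For the 6 genes described here in the highest quartile, that library gave the highest value on 16 of 30 gene-days. Such an order is partly built in, since the balance is computed from the genes of these quartiles. Leaving out the replicates numbered 1 of days 3 and 4 keeps only the day 4 libraries with balances of 0.715 and 0.877. That omission therefore also changes the GC balance of day 4 relative to day 0. Where a call is lost once each library's trends with GC content and transcript length are removed, both values are given. That fit, over 15296 genes, also added calls: SLC39A6, SLC39A10 and SLC31A2 on day 1 relative to day 0, SLC39A4, SLC39A8, SLC39A11 and ATP7A on day 2 relative to day 1, SLC30A3 and ATP7B on day 3 relative to day 2, and SLC39A9 and SLC39A13 on day 4 relative to day 0. In the joint test of the 5 days it added SLC30A2, SLC30A5, SLC31A1, SLC39A3, SLC39A9, SLC39A10 and SLC39A13. It called 19 zinc and copper genes there, beside 7947 of the 15296 genes.

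**Figure D1:**
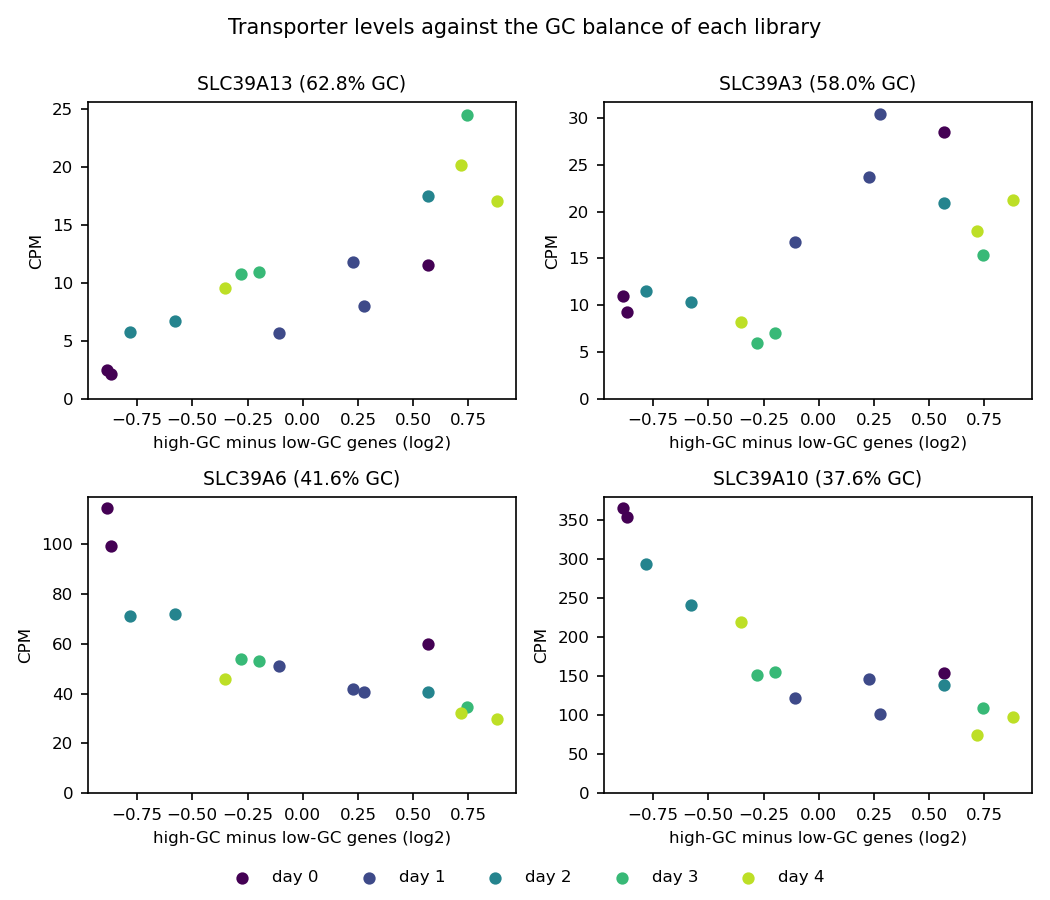
CPM of 2 GC-rich zinc importers, SLC39A13 and SLC39A3 (top), and of 2 GC-poor ones, SLC39A6 and SLC39A10 (bottom), against the GC balance of each of the 15 libraries, coloured by day. Within day 0, the library at 0.565 holds the highest SLC39A13 and SLC39A3 and the lowest SLC39A6 and SLC39A10 values.

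Of the 32 genes, 31 had enough counts to test; SLC39A12, a zinc importer known mainly from brain, had 30 counts in replicate 1 of day 3, at most 4 in any other library and none in 11 libraries. A gene was called when its Benjamini-Hochberg adjusted p, taken over all 17401 genes tested with edgeR's quasi-likelihood test, was under 0.05. By day 4 relative to day 0, 5 of the 31 were called higher and 6 lower (35.5%), beside 34.2% of all genes (18% higher, 16.2% lower). A joint test of the 5 days called 13 of 31 (41.9%), beside 37.3% of all genes. As a set, these genes were thus called about as often as genes in general, and the results below concern single genes. The median log2 fold change on day 4 relative to day 0 was 0.335 over the 31 genes and −0.024 over all genes.

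Consecutive days gave fewer calls. On day 1 relative to day 0, 2 genes were called higher (SLC30A4 and SLC39A8) and 1 lower (SLC30A3), 9.68% of the 31 beside 10.4% of all genes (5.49% higher, 4.88% lower). Day 2 relative to day 1 had 1 call, SLC30A4, higher (3.23% beside 8.27% of all genes, 4.93% higher and 3.34% lower). Day 3 relative to day 2 had 0 calls among the 31, where 0.948% of all genes were called (0.661% higher, 0.287% lower). In that comparison 7 of the 31 had an unadjusted p under 0.05, beside 2471 of all 17401 genes. DESeq2 called 5 (SLC30A2, SLC30A3, SLC30A10, ATP7B and SLC31A2), beside 959 of 16695 genes. Day 4 relative to day 3 had 0 calls among the 31 and 0% of all genes. SLC30A10 was the 1 with an unadjusted p under 0.05, beside 1074 of all genes, and DESeq2 called 0 of the 31 there and 66 of all genes. The number of calls on day 1 depended on the test: DESeq2 called 8, adding SLC30A1, SLC30A10, SLC31A2, SLC39A6 and SLC39A10. Over all genes it called 2837 of 17369 there, where edgeR called 1806 of 17401.

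**Figure D2:**
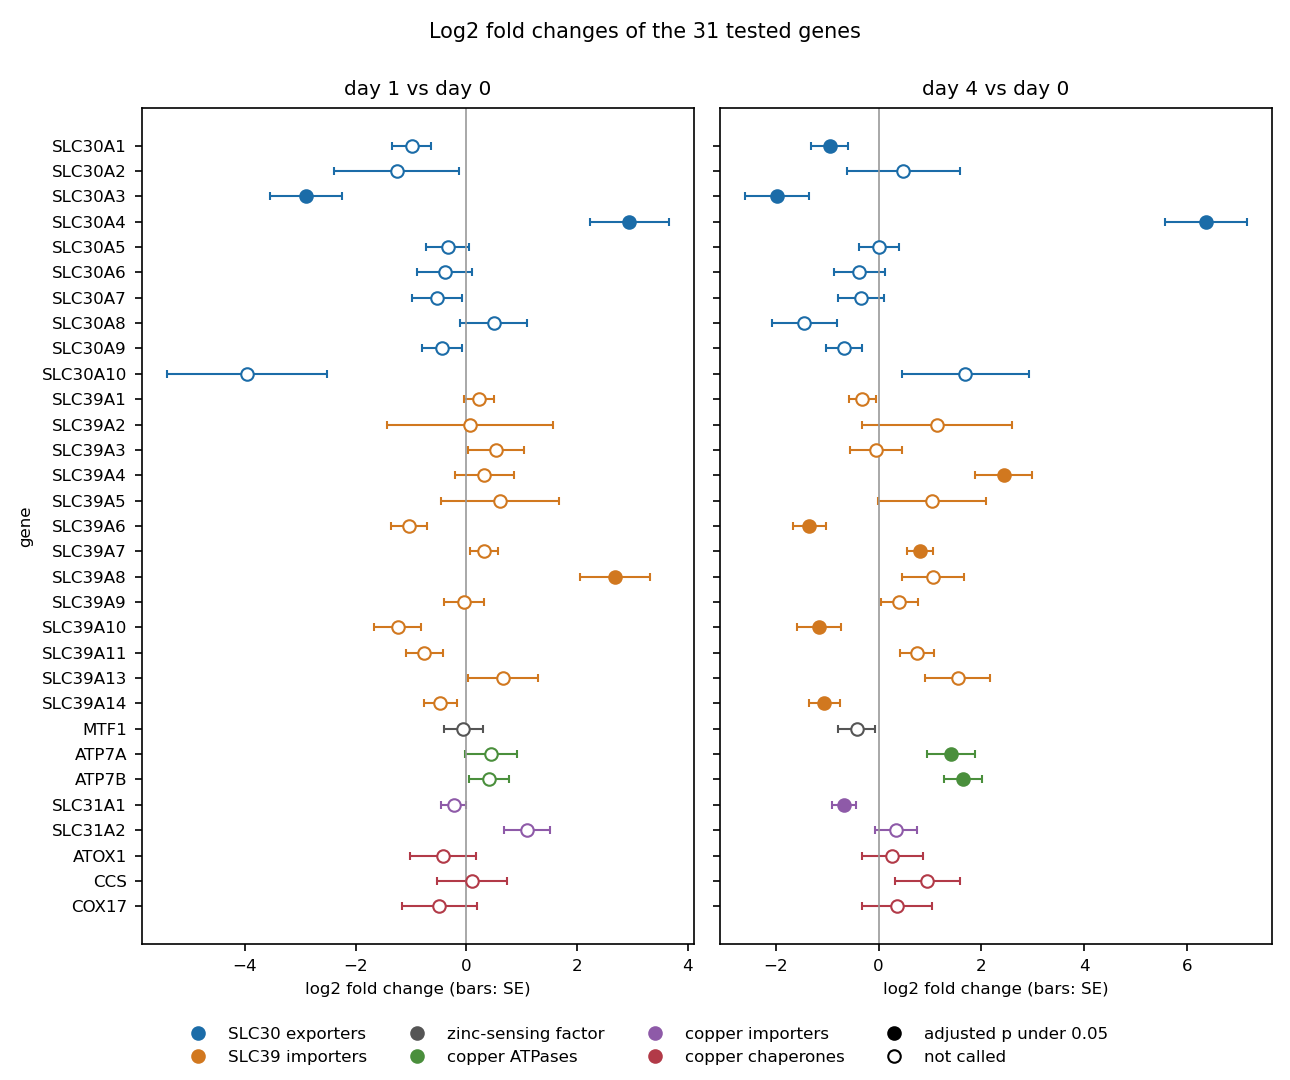
Log2 fold change with its SE (edgeR) for each of the 31 tested genes, coloured by role, on day 1 relative to day 0 (left) and day 4 relative to day 0 (right); filled points had an adjusted p under 0.05. SLC30A4 lies farthest to the right in both panels, at 2.95 and 6.37.

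Among the 10 zinc exporters, SLC30A4 was called higher on day 4 than on day 0, and SLC30A3 and SLC30A1 lower. SLC30A8 and SLC30A10 varied over the days without a pairwise call in the reported edgeR fit. Organelle exporters of high level, SLC30A5, SLC30A6, SLC30A7 and SLC30A9, had no call in any comparison of that fit.

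SLC30A4 encodes ZnT4, which loads zinc into endosomal and secretory vesicles. It had 0.0237, 0.139 and 0.0381 CPM in replicates 1, 2 and 4 of day 0, 0.388, 0.587 and 0.615 CPM on day 1, 4.18, 2.86 and 0.877 CPM on day 2, 3.32, 8.89 and 3.18 CPM on day 3 and 4.65, 7.85 and 4.66 CPM on day 4. All libraries of day 1 lay above all of day 0, and all of day 2 above all of day 1. All libraries of day 4 lay above all of day 2, and day 3 overlapped both. The mean was 5.72 ± 1.84 CPM on day 4 and 0.0669 ± 0.0629 CPM on day 0 (SD, n = 3 each), a log2 fold change of 6.37 (SE 0.79, adjusted p = 3.18e-05). Day 1 relative to day 0 gave 2.95 (SE 0.71, adjusted p = 0.0139) and day 2 relative to day 1 gave 2.31 (SE 0.65, adjusted p = 0.0371). The day 0 level rests on 2, 14 and 4 counts, beside 474, 786 and 264 counts on day 4, and leaving out single libraries gave values of 6.03 to 7.48. The day 1 call was lost without replicate 1 of day 0 (adjusted p = 0.0656), and the day 2 call without any library of day 1 or without replicate 1 or 2 of day 2 (adjusted p = 0.0946 to 0.16).

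SLC30A3 encodes ZnT3, known for filling synaptic vesicles of neurons with zinc. Its levels were 3.27, 3.38 and 4.57 CPM on day 0, 0.666, 0.352 and 0.489 CPM on day 1, 0.350, 0.201 and 0.384 CPM on day 2, 3.63, 0.360 and 2.57 CPM on day 3 and 1.24, 0.659 and 0.954 CPM on day 4. Every library of days 1, 2 and 4 was below every library of day 0, whereas 2 of the 3 libraries of day 3 were back within or near the day 0 range. The log2 fold change was −2.89 on day 1 (SE 0.65, adjusted p = 0.00889) and −1.97 on day 4 (SE 0.63, adjusted p = 0.0242), both relative to day 0. The first was lost without replicate 2 of day 1 (adjusted p = 0.0576) and the second without replicate 4 of day 0 or replicate 2 or 4 of day 4 (adjusted p = 0.0584 to 0.0998). Without the replicates numbered 1 of days 3 and 4 the day 4 value was −2.16 (adjusted p = 0.032).

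SLC30A1, the plasma membrane exporter ZnT1 whose promoter is printed above, had 37.4, 32.7 and 26.6 CPM on day 0, 18.6, 17.6 and 12.7 CPM on day 1, 14.3, 10.7 and 13.1 CPM on day 2, 27.7, 18.4 and 18.8 CPM on day 3 and 27.0, 12.8 and 10.3 CPM on day 4. The libraries of days 1 and 2 were all below those of day 0, and those of days 3 and 4 reached into its range through replicate 1. On day 4 relative to day 0 the log2 fold change was −0.95 (SE 0.36, adjusted p = 0.0499); the joint test gave an adjusted p of 0.0413, which was lost without any of 9 libraries: replicates 1 and 2 of day 0, all of days 1 and 2, and replicate 2 of day 4. The day 4 call is marginal: it was lost when any library but replicate 4 of day 0 or replicate 1 of day 4 was left out (adjusted p = 0.0501 to 0.191), and with the GC and length trends removed the value was −0.70 (adjusted p = 0.0746). Without the replicates numbered 1 of days 3 and 4 it was −1.43 (adjusted p = 0.00494). For day 1 relative to day 0 the fitted value was −0.99 (adjusted p = 0.0947).

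SLC30A8, the ZnT8 of pancreatic insulin granules, had 0.899, 1.47 and 2.11 CPM on day 0, 1.33, 2.09 and 2.90 CPM on day 1, 0.203, 0.301 and 0.986 CPM on day 2, 0.448, 1.02 and 1.38 CPM on day 3 and 0.628, 0.419 and 0.601 CPM on day 4. All libraries of day 2 lay below all of day 1, and all of day 4 below all of day 0. In the reported edgeR fit only the joint test called it (adjusted p = 0.0444), and not with GC and length trends removed (adjusted p = 0.111), without the replicates numbered 1 of days 3 and 4 (adjusted p = 0.0619), or without any single library other than replicate 1 of day 0, replicate 4 of day 2 and replicates 1 and 4 of day 3. Library totals alone, no filter and DESeq2 size factors in edgeR lost the joint call too. Day 2 relative to day 1 gave −2.09 (SE 0.64, adjusted p = 0.0559). That decrease was called by DESeq2, with the replicate block (with or without trends removed), with counts halved and without replicate 4 of day 2. With trends removed but no block it was not called.

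SLC30A10, a manganese exporter despite its family, had 1.02, 0.477 and 0.361 CPM on day 0, 0.0277, 0.0294 and 0.0543 CPM on day 1, 0, 0.0251 and 0 CPM on day 2, 0.0408, 0.661 and 0.0485 CPM on day 3 and 0.785, 5.15 and 0.0353 CPM on day 4. The 5 days differed (joint adjusted p = 0.00558), and none of the 5 pairwise comparisons called it in the reported edgeR fit (day 1 relative to day 0, adjusted p = 0.0975). DESeq2 called it on day 1 relative to day 0 and on day 3 relative to day 2. On day 1 relative to day 0, edgeR called it with the replicate block, with or without GC and length trends removed. It also did so with only the days compared and without replicate 4 of day 4. Behind the CPM values stand 86, 48 and 38 counts on day 0, at most 6 in any library of days 1 and 2, and 80, 516 and 2 counts on day 4, so the libraries of day 4 spread over 2 to 516 counts. The replicate 2 libraries of days 3 and 4, where SLC30A10 was highest of its day, also had the highest levels of PAX6, a transcription factor of neural and pancreatic cells, at 29.3 and 60.4 CPM. SOX1, the other marker of the neural list, had 0.03 and 0 CPM there. The endoderm markers CXCR4 (159 and 509 CPM) and CER1 (4478 and 2683 CPM) were highest of the day in these libraries too. GATA6 and FOXA2 were so on day 4 alone, and SOX17 on neither day. The part of other cell types in the SLC30A10 result was not tested.

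SLC30A9, a mitochondrial zinc exporter and the highest of the family in mean CPM over all libraries, had 126, 171 and 79.8 CPM on day 0, 90.7, 105 and 82.1 CPM on day 1, 123, 116 and 79.8 CPM on day 2, 96.7, 104 and 49.2 CPM on day 3 and 113, 64.1 and 59.7 CPM on day 4. Replicate 4 was lowest on every day, and the days overlapped. SLC30A5 and SLC30A6, which act together in the early secretory pathway, had day means of 55.9 to 93.6 CPM and 77.5 to 105.6 CPM, and SLC30A7, a Golgi exporter, 54.8 to 79.0 CPM. SLC30A2, known for zinc secretion into milk, ran from 0.257 CPM on day 2 to 3.20 CPM on day 3, where replicate 4 alone had 7.89 CPM.

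**Figure D3:**
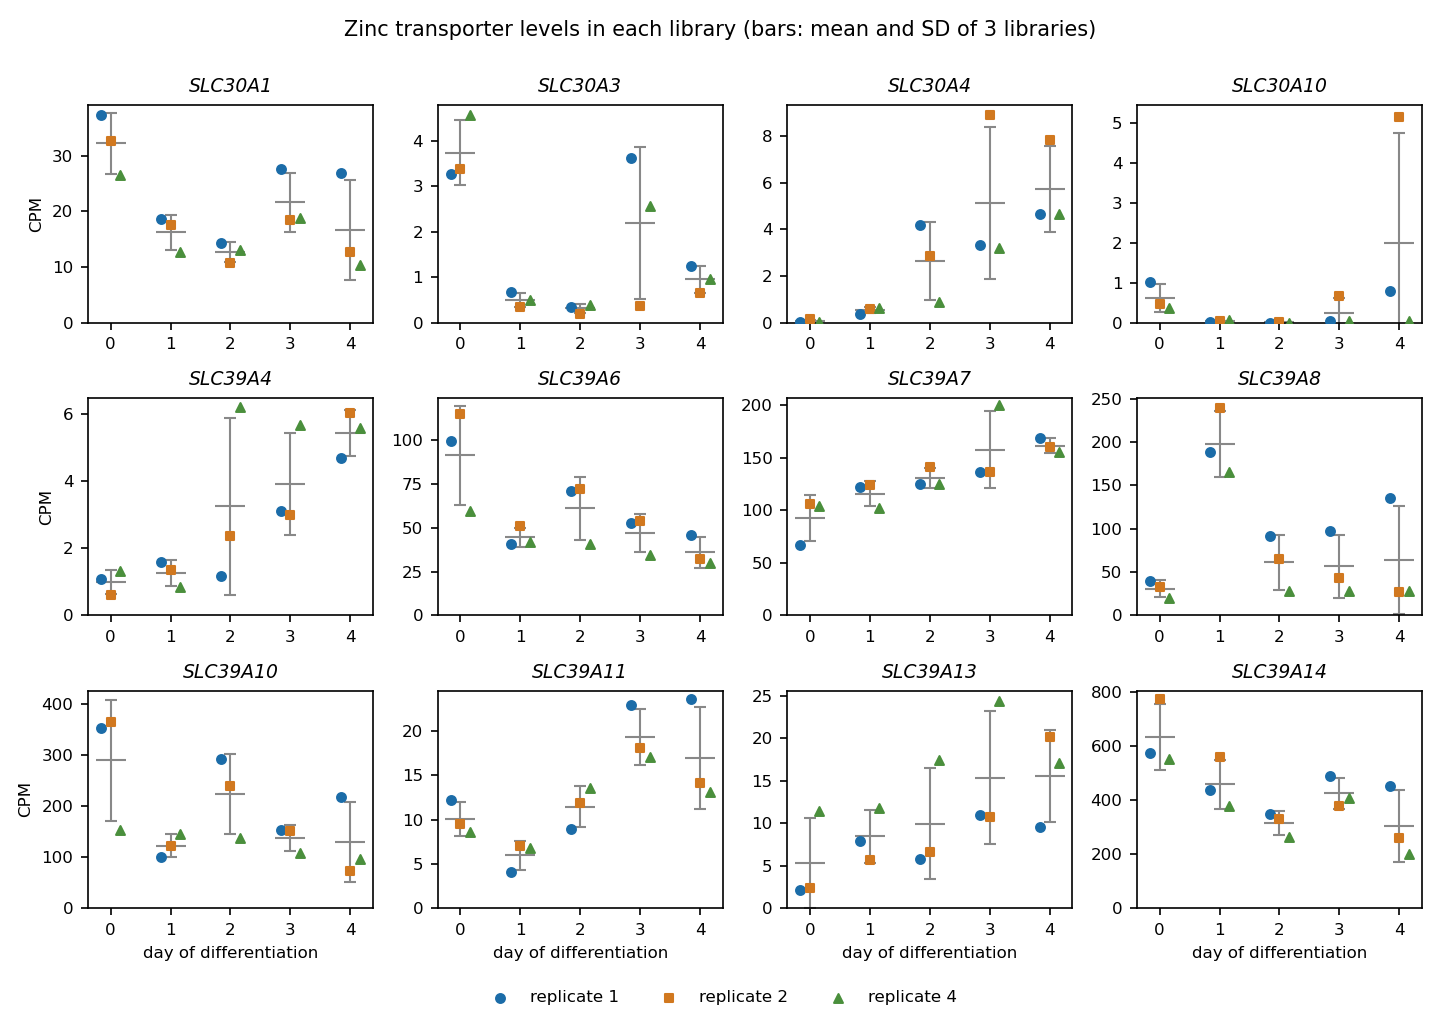
CPM of 12 zinc transporters in each library by day, with the mean and SD of the 3 libraries of a day (bars stop at 0); symbols give the replicate number. SLC39A8 peaks on day 1 at 165 to 239 CPM, and SLC30A4 climbs to 4.65 to 7.85 CPM on day 4.

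Among the 14 zinc importers, SLC39A8 was called higher on day 1 relative to day 0. On day 4 relative to day 0, SLC39A4 and SLC39A7 were called higher, and SLC39A6, SLC39A10 and SLC39A14 lower. SLC39A11 was called in the joint test alone in the reported edgeR fit.

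SLC39A8 encodes ZIP8, which imports zinc, manganese and iron at the plasma membrane. It had 39.4, 32.4 and 20.5 CPM on day 0, 188, 239 and 165 CPM on day 1, 91.1, 65.4 and 28.1 CPM on day 2, 97.9, 43.4 and 28.1 CPM on day 3 and 135, 27.5 and 28.1 CPM on day 4. Every library of day 1 exceeded every library of all other days. The mean was 197 ± 37.8 CPM on day 1 and 30.8 ± 9.56 CPM on day 0 (SD, n = 3 each), a log2 fold change of 2.68 (SE 0.63, adjusted p = 0.0121) that was called under all 26 alternatives, from 2.48 to 2.91. The following decrease was not called: day 2 relative to day 1 gave −1.68 (SE 0.61, adjusted p = 0.109), although the libraries did not overlap and DESeq2 called it. Nor was day 4 relative to day 0 (1.05, SE 0.60, adjusted p = 0.19), where replicate 1, the library with the low endoderm marker sum, had 135 CPM and the other libraries 27.5 and 28.1 CPM, within the day 0 range. In replicates 1, 2 and 4 of day 4 the 3 trophoblast and amnion markers together had 103.2, 24.2 and 37.2 CPM, nearly all of it GATA3 (103, 24.1 and 36.7 CPM), and KRT7 was at 0 in replicates 1 and 2. On day 3 that sum was 65.4, 16.0 and 50.6 CPM. The 4 mesoderm markers together had 115.9, 39.97 and 109.7 CPM on day 4. The part of other cell types in the result was not tested.

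SLC39A4, the intestinal zinc importer ZIP4, had 1.09, 0.616 and 1.31 CPM on day 0, 1.58, 1.35 and 0.851 CPM on day 1, 1.18, 2.36 and 6.19 CPM on day 2, 3.10, 2.97 and 5.65 CPM on day 3 and 4.69, 6.03 and 5.58 CPM on day 4. All libraries of days 3 and 4 were above all of days 0 and 1, and day 2 spanned both. The log2 fold change on day 4 relative to day 0 was 2.43 (SE 0.56, adjusted p = 0.00373), and it was called under all 26 alternatives (2.21 to 2.73).

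SLC39A7, the ZIP7 that releases zinc from the endoplasmic reticulum, had 67.4, 106 and 105 CPM on day 0, 122, 124 and 102 CPM on day 1, 125, 142 and 125 CPM on day 2, 136, 136 and 200.4 CPM on day 3 and 169, 159.9 and 156 CPM on day 4. In these values the libraries of day 4 lay close together and above all of day 0, at 162 ± 6.73 CPM against 92.7 ± 21.9 CPM (SD, n = 3 each). With the GC and length trends removed the days overlapped. The libraries then had 210, 136 and 132 CPM on day 4 and 80.8, 149 and 88.7 CPM on day 0. In the reported edgeR fit the log2 fold change was 0.80 (SE 0.25, adjusted p = 0.0223). It was 0.58 (adjusted p = 0.082) with the GC and length trends removed, and without replicate 1 of day 0 it was not called (adjusted p = 0.0627). The call was also lost with only the days compared, and the joint test did not call SLC39A7 (adjusted p = 0.0783).

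SLC39A6 and SLC39A10 encode ZIP6 and ZIP10, closely related importers known to form a pair and to act in cell shape change and division. SLC39A6 had 99.3, 115 and 59.9 CPM on day 0, 40.8, 51.0 and 41.7 CPM on day 1, 71.1, 72.1 and 40.6 CPM on day 2, 53.0, 53.9 and 34.8 CPM on day 3 and 45.9, 32 and 30.0 CPM on day 4. Days 1, 3 and 4 were below day 0 in every library, with a log2 fold change on day 4 of −1.34 (SE 0.32, adjusted p = 0.00515). Both genes are poor in GC, and removing the GC and length trends brought the day 4 value of SLC39A6 to −0.92 (adjusted p = 2.79e-04).
SLC39A10 had 353, 365 and 154 CPM on day 0, 101, 122 and 146 CPM on day 1, 294, 240.4 and 139 CPM on day 2, 154, 151 and 108 CPM on day 3 and 219, 74.0 and 97.0 CPM on day 4. Day 4 overlapped day 0, since replicate 4 of day 0 was under the replicate 1 value of day 4. The log2 fold change on day 4 was −1.16 (SE 0.42, adjusted p = 0.0441), −0.80 (adjusted p = 0.00728) with the GC and length trends removed and −1.71 (adjusted p = 0.00815) without the replicates numbered 1 of days 3 and 4. Leaving out any library other than replicate 4 of day 0, replicates 1 and 4 of day 2, replicate 4 of day 3 and replicate 1 of day 4 ended the call (adjusted p = 0.0527 to 0.177). So did library totals alone and only the days compared. The joint test did not call SLC39A10 (adjusted p = 0.0665).

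SLC39A14, the ZIP14 that carries manganese, zinc and iron and is known from liver, had the highest CPM of the 32 genes on every day. It had 574, 775 and 551 CPM on day 0, 436, 559 and 380.0 CPM on day 1, 349.8, 329 and 264 CPM on day 2, 488, 377 and 409 CPM on day 3 and 453, 258 and 201 CPM on day 4. Days 2, 3 and 4 lay below day 0 in every library. The day 4 mean was 304 ± 132 CPM against 633 ± 123 CPM on day 0 (SD, n = 3 each), a log2 fold change of −1.06 (SE 0.30, adjusted p = 0.0142) that was lost without replicate 2 of day 0 or replicate 2 or 4 of day 4 (adjusted p = 0.0506 to 0.0696). Without the replicates numbered 1 of days 3 and 4 it was −1.41 (adjusted p = 0.00334). The joint test called the gene too (adjusted p = 0.0438), but lost it without any library other than replicate 4 of day 3 and replicate 1 of day 4.

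SLC39A11, the ZIP11 of the Golgi and nucleus, had 12.2, 9.49 and 8.58 CPM on day 0, 4.05, 7.08 and 6.77 CPM on day 1, 8.95, 11.9 and 13.6 CPM on day 2, 22.96, 18.1 and 17.0 CPM on day 3 and 23.6, 14.2 and 13.1 CPM on day 4. Day 1 was lowest and day 3 highest in mean, and the libraries of day 1 were all below those of day 0 and of day 2. The days differed in the joint test (adjusted p = 0.00642), which held under all of its alternatives. Its pairwise values, −0.76 on day 1 and 0.75 on day 4 relative to day 0, were not called (adjusted p = 0.176 and 0.0917).

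The remaining importers had no call in the reported edgeR fit. SLC39A1, the widespread plasma membrane importer ZIP1, had day means of 152 to 233 CPM; its exons overlap those of a second gene on the same strand over 60.8% of their length in GENCODE, so reads of both may be mixed. SLC39A9, a Golgi importer, had 71.2 to 112.8 CPM, and SLC39A3 9.46 to 23.7 CPM. SLC39A13, the Golgi and vesicle importer ZIP13, had a mean of 15.6 ± 5.46 CPM on day 4 and 5.34 ± 5.33 CPM on day 0, with a fitted log2 value of 1.54 (SE 0.63, adjusted p = 0.0713); DESeq2 and the fit with GC and length trends removed called it. SLC39A2 and SLC39A5 stayed at or under 0.334 CPM and 0.299 CPM in every library.

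MTF1, the zinc sensor, had 12.0, 29.5 and 17.1 CPM on day 0, 18.6, 21.6 and 16.3 CPM on day 1, 16.7, 16.2 and 11.8 CPM on day 2, 22.6, 15.6 and 14.3 CPM on day 3 and 19.6, 12.4 and 11.6 CPM on day 4. The days overlapped throughout (joint adjusted p = 0.735), and the fitted log2 value on day 4 relative to day 0 was −0.43 (SE 0.36).

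In the copper group both ATPases were called higher on day 4 than on day 0 and the plasma membrane importer SLC31A1 lower, while the 3 chaperones had no call. ATP7B had 4.12, 11.1 and 13.3 CPM on day 0, 11.3, 14.5 and 12.2 CPM on day 1, 8.01, 10.2 and 8.49 CPM on day 2, 24.9, 18.4 and 21.3 CPM on day 3 and 33.6, 32.1 and 23.6 CPM on day 4. The libraries of days 3 and 4 were all above those of days 0, 1 and 2. The mean was 29.8 ± 5.42 CPM on day 4 and 9.48 ± 4.77 CPM on day 0 (SD, n = 3 each), a log2 fold change of 1.65 (SE 0.37, adjusted p = 0.00328), called under all 26 alternatives (1.32 to 2.01). Day 3 relative to day 2 had a fitted value of 1.27 (SE 0.37, adjusted p = 0.108), which DESeq2 and the fit with GC and length trends removed called.

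ATP7A, the copper ATPase of most other tissues, had 4.97, 7.61 and 3.77 CPM on day 0, 6.02, 8.78 and 7.51 CPM on day 1, 19.4, 21.5 and 12.5 CPM on day 2, 27.7, 22.9 and 9.66 CPM on day 3 and 24.8, 11.0 and 7.74 CPM on day 4. Every library of day 2 was above every library of days 0 and 1, and replicate 4 was lowest on days 2, 3 and 4. The log2 fold change on day 4 relative to day 0 was 1.41 (SE 0.47, adjusted p = 0.0299), and 1.56 (adjusted p = 1.77e-04) with the GC and length trends removed. It was 0.83 (adjusted p = 0.147) without the replicates numbered 1 of days 3 and 4, and single libraries whose absence ended the call were replicates 1 and 4 of day 0 and replicate 1 of day 4 (adjusted p = 0.0723 to 0.144). The joint test, with an adjusted p of 0.0179, kept its call under all of its alternatives. ATP7A shares 1.05% of its exon bases with PGK1 on the same strand.

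SLC31A1 encodes CTR1, the high affinity copper importer. It had 129, 147 and 113 CPM on day 0, 114, 105 and 114 CPM on day 1, 106, 88.1 and 71.8 CPM on day 2, 78.7, 79.8 and 76.0 CPM on day 3 and 94.4, 77.4 and 73.1 CPM on day 4. All libraries of days 3 and 4 were below all of day 0. The log2 fold change on day 4 was −0.67 (SE 0.23, adjusted p = 0.0348), and −0.44 (adjusted p = 0.0291) with the GC and length trends removed. The call ended without any of the same 10 libraries as for SLC39A10 (adjusted p = 0.0531 to 0.126) and without both replicates numbered 1 of days 3 and 4 (−0.73, adjusted p = 0.0553). It also ended with library totals alone, with no filter and with only the days compared. The joint test did not call SLC31A1 (adjusted p = 0.0612).

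SLC31A2, the CTR2 of lysosomes and endosomes, had 1.82, 1.17 and 1.54 CPM on day 0, 3.44, 2.61 and 3.60 CPM on day 1, 4.47, 4.14 and 2.58 CPM on day 2, 1.35, 2.55 and 1.02 CPM on day 3 and 1.65, 2.20 and 1.87 CPM on day 4. Days 1 and 2 lay above days 0, 3 and 4 in every library. In the reported edgeR fit only the joint test called it (adjusted p = 0.0444), and it was lost without any library other than replicate 1 of day 0, replicate 4 of day 2 and replicate 2 of day 3 (adjusted p = 0.0521 to 0.116) and without both replicates numbered 1 of days 3 and 4 (adjusted p = 0.0866).

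COX17, which carries copper to cytochrome c oxidase in mitochondria, had 38.4, 9.08 and 14.8 CPM on day 0, 17.5, 12.2 and 14.8 CPM on day 1, 8.03, 9.16 and 29.02 CPM on day 2, 4.29, 15.9 and 27.7 CPM on day 3 and 11.2, 29.8 and 39.0 CPM on day 4. On every day but day 1 the libraries spread more widely than the day means, and the joint test gave an adjusted p of 0.732. ATOX1, which hands copper to the ATPases, had day means of 14.3 to 25.9 CPM (joint adjusted p = 0.606). CCS, which loads superoxide dismutase, had 4.88 to 10.5 CPM (joint adjusted p = 0.519). Processed pseudogenes resemble some of these genes, among them copies of COX17 and SLC31A1 that GENCODE lists, so their counts could be shared with such copies.

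**Figure D4:**
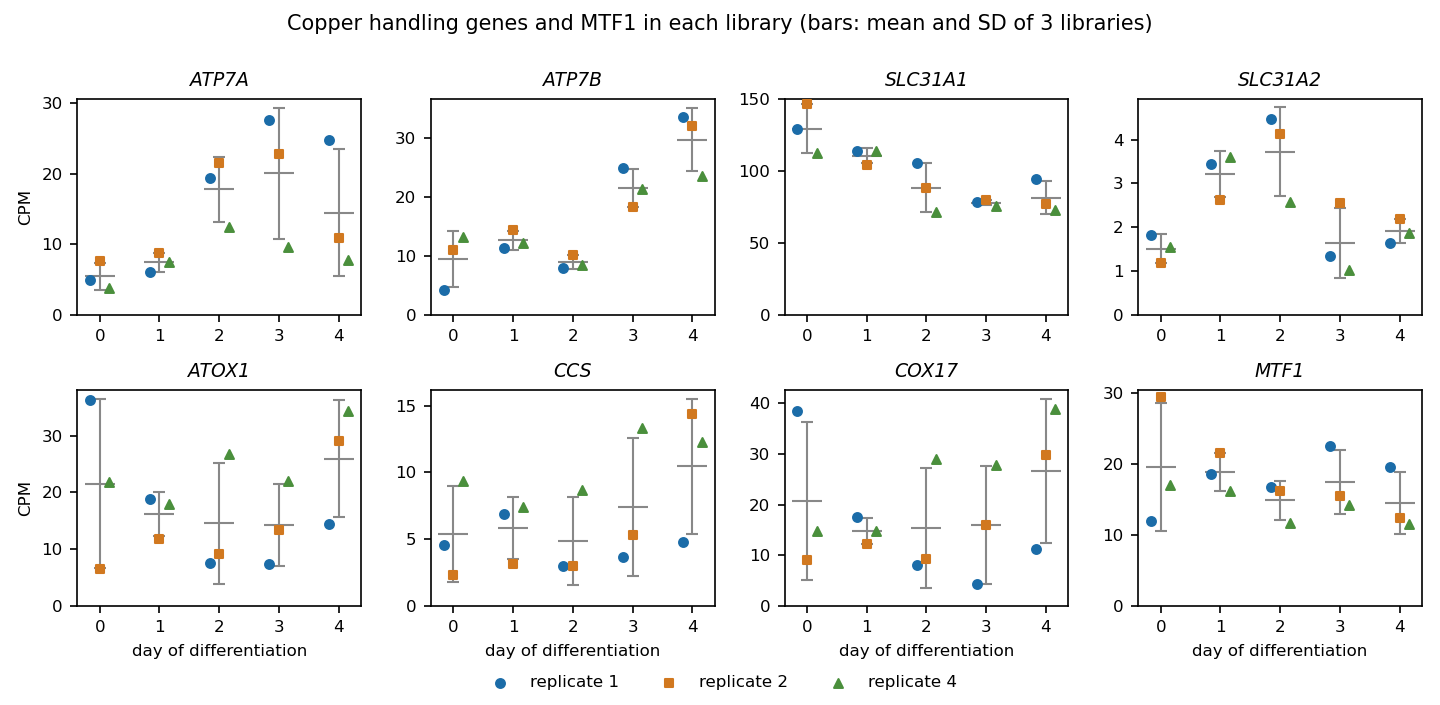
CPM of the copper ATPases, importers and chaperones and of MTF1 in each library by day, with the mean and SD of the 3 libraries of a day; symbols give the replicate number. ATP7B reaches 23.6 to 33.6 CPM on day 4, and the chaperones ATOX1, CCS and COX17 spread widely within the days other than day 1.

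Levels were compared between genes as CPM per kilobase of the principal transcript. On day 0 SLC39A14 stood highest of the 32 at 136 ± 26.6 CPM per kb, followed by SLC39A1 at 72.8 ± 13.4, SLC39A10 at 53.5 ± 21.8 and SLC39A7 at 38.5 ± 9.09 CPM per kb (SD, n = 3 each). SLC39A14 was above SLC39A1 in every library of that day, at 118.7 to 167 CPM per kb beside 58.5 to 85.0 CPM per kb, and the next neighbours overlapped. On day 1 SLC39A8 ranked 3 of 32 at 61.0 ± 11.7 CPM per kb; its rank on day 0 was 15, at 9.50 ± 2.95 CPM per kb. By day 4 SLC39A7 at 67.1 ± 2.79, SLC39A14 at 65.6 ± 28.5 and SLC39A1 at 58.5 ± 7.81 CPM per kb led the order with overlapping spreads.

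The same values per kb also gave each gene's share of its family's sum. Shares of a sum depend on each other, and they were not tested. In the SLC39 family SLC39A14 took 21.4 ± 3.84% of the sum on day 4 and 36.3 ± 1.98% on day 0. SLC39A7 took 23.3 ± 4.66% on day 4 and 10.3 ± 2.35% on day 0, and SLC39A8 took 16.4 ± 0.773% on day 1 and 2.55 ± 0.844% on day 0 (SD, n = 3 each). The libraries did not overlap in any of these 3 pairs, in values from which the GC and length trends had not been removed. In the SLC30 family, SLC30A5, SLC30A6 and SLC30A9 were the leading genes on days 0 and 4, with 27.7 ± 1.37%, 25.8 ± 3.92% and 22.7 ± 3.80% of the sum on day 4 and 21.0 ± 2.74%, 26.9 ± 1.92% and 26.7 ± 3.90% on day 0. SLC30A4, for all its relative increase, made up 1.61 ± 0.837% of that sum on day 4.

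**Figure D5:**
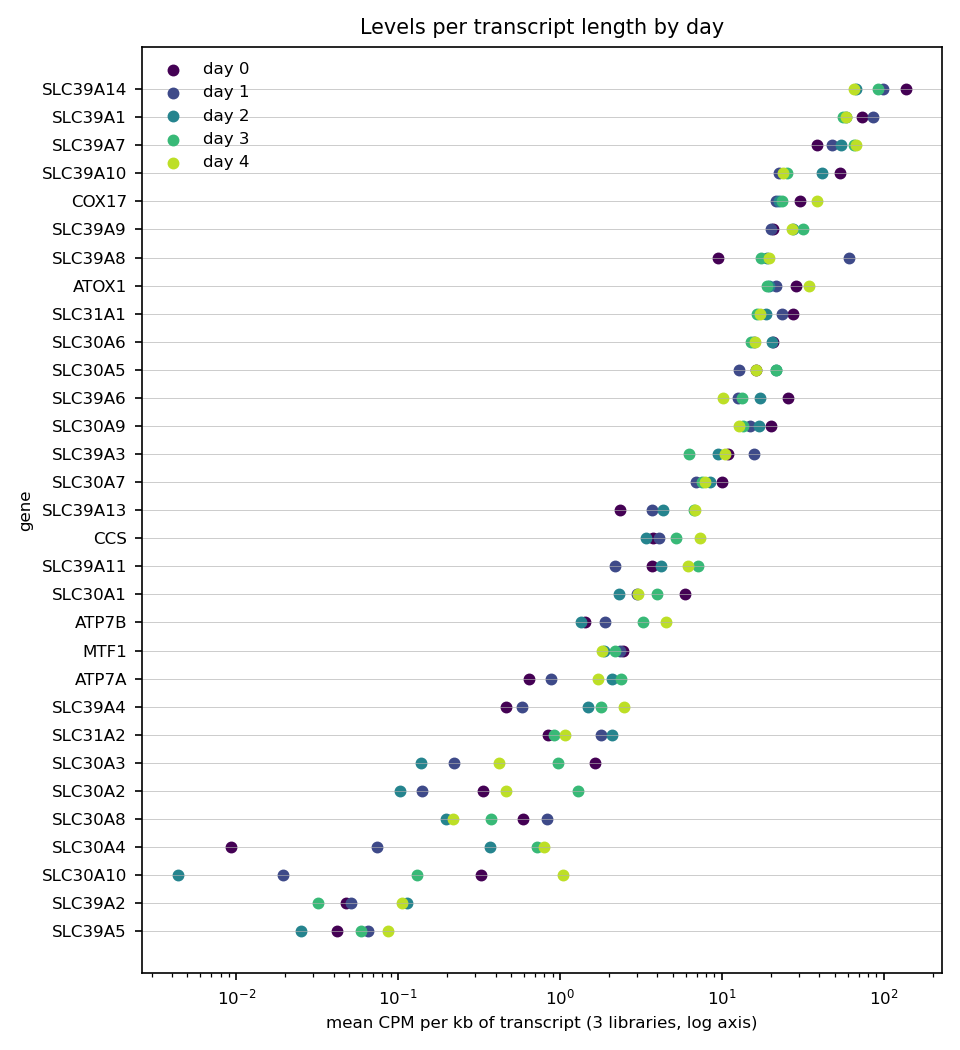
Mean CPM per kilobase of transcript (log axis) of 31 of the genes on each day, ordered by their level over all days; SLC39A12, with no count in most libraries, is left out. SLC39A14 is highest on day 0, and SLC39A8 has 61.0 CPM per kb on day 1, against 9.50 CPM per kb on day 0.

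Companion lists gave the surrounding pathway. Of 12 metallothioneins, the small proteins that buffer zinc and copper, 7 were tested; 2 were lower and 0 higher on day 1 relative to day 0 (28.6%, beside 10.4% of all genes), and 4 were lower and 0 higher on day 4 (57.1%, beside 34.2%), with a median log2 fold change of −2.89. The day 1 calls, MT1X and MT1F, were both lost without replicate 1 of day 0 or without any library of day 1 (adjusted p = 0.068 to 0.302). MT1X, whose promoter is printed above, had 90.9, 13.9 and 26.3 CPM on day 0, 7.21, 3.94 and 5.14 CPM on day 1, 1.91, 1.81 and 2.79 CPM on day 2, 0.530, 0.631 and 5.44 CPM on day 3 and 1.47, 1.80 and 4.24 CPM on day 4. Every later library was below every day 0 library, and the log2 fold change on day 4 was −4.13 (SE 0.89, adjusted p = 0.00245). MT1F, MT1G and MT1E were also called lower on day 4, at −3.51, −3.38 and −2.88 (adjusted p = 0.00519, 0.0433 and 0.0202). Replicate 1 of day 0 held the highest value of each, and without it none of these 3 was called. The MT1G call was also lost without any library of day 1 or day 4, with library totals alone and with the replicate block. The MT1E call was also lost without replicate 2 or 4 of day 4. The metallothionein genes are near-identical copies, so how their counts divide among them is uncertain.

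Of 26 other copper genes (copper-dependent enzymes and further chaperones and reductases) 24 were tested, and 5 were higher and 5 lower on day 4 relative to day 0 (41.7%, beside 34.2% of all genes). The leading ones were the lysyl oxidase LOXL4 (5.47, SE 0.76, adjusted p = 8.41e-05), the plasma ferroxidase CP (−5.23, SE 0.95, adjusted p = 7.51e-04), the extracellular superoxide dismutase SOD3 (3.66, SE 0.74, adjusted p = 0.00165) and the metal reductase STEAP2 (−1.84, SE 0.58, adjusted p = 0.0227). The STEAP2 call was lost without replicate 1 or 2 of day 0 or replicate 2 or 4 of day 4 (adjusted p = 0.0517 to 0.112). LOXL4 had 3.26, 15.8 and 11.7 CPM on day 4 and 0.189, 0.139 and 0.361 CPM on day 0, and CP 0.0982, 0 and 0.0707 CPM on day 4 and 3.15, 2.11 and 1.12 CPM on day 0.

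Of 13 iron and manganese genes, all tested, 1 was higher and 1 lower on day 2 relative to day 1 (15.4%, beside 8.27% of all genes). On day 4 relative to day 0 and in the joint test 1 was called (7.69%, beside 34.2% and 37.3% of all genes), SLC40A1 in both. SLC40A1, ferroportin, the cell's iron exporter, had 1.02, 0.357 and 0.628 CPM on day 0, 1.97, 2.06 and 1.48 CPM on day 1, 86.2, 72.4 and 31.1 CPM on day 2, 134, 136 and 67.7 CPM on day 3 and 128, 202 and 93.8 CPM on day 4. Day 2 relative to day 1 had a log2 fold change of 5.11 (SE 0.52, adjusted p = 3.33e-05), and day 4 relative to day 0 gave 7.73 (SE 0.58, adjusted p = 3.68e-07). Of 5 other zinc genes, GPR39, a receptor that senses extracellular zinc, was higher on day 4 than on day 0 (2.54, adjusted p = 0.00122), with 1.90, 2.04 and 1.17 CPM on day 4 and 0.237, 0.218 and 0.419 CPM on day 0. TMEM163, a vesicular zinc transporter, had 0.305, 0.206 and 0.181 CPM on day 1 and 5.02, 1.57 and 1.73 CPM on day 0 (log2 fold change −3.59), and was called higher again on day 2 relative to day 1 (2.81, adjusted p = 0.044). The first of these calls was lost without replicate 1 of day 0 or replicate 2 or 4 of day 1 (adjusted p = 0.058 to 0.0621). The second was lost without any library of day 1, replicate 2 of day 0, replicate 2 or 4 of day 2 or replicate 4 of day 4 (adjusted p = 0.0514 to 0.148).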

How the data were processed

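Strand-specific polyA libraries were made, per the labels' protocols; TopHat2 2.0.14 and hg19 are named in the submitters' processing notes. Which program and annotation gave the counts, and whether strand was used, is not given in the sources used here; overlapping or antisense neighbours may therefore share counts. The authors deposited raw gene counts for 15 libraries, without normalization; every value was even (0 odd), as when both mates of a pair are counted. Of 23398 entries 52 repeated a symbol: 44 identical repeats were dropped and 8 summed.

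Counts were tested with edgeR 4.0.16 (limma 3.58.1, R 4.3.3): TMM scaling, filterByExpr by day (17401 genes kept), 1 mean for each day, the 15 libraries fitted together with a shared estimate of spread, and a quasi-likelihood F-test with Benjamini-Hochberg adjustment over all genes tested. Each SE was taken from the log2 fold change and its F value. The biological coefficient of variation was 45.6%. The scripts were tested on simulated data. Transcript lengths and GC contents came from GENCODE release 29, on another build than the reads, and were held for 86.5% of symbols and all 32 genes described. No library was a copy of another: within a day, chi-square over degrees of freedom was 81.2 to 1180.

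The genes and lists were chosen with earlier results of these data known. Values per library are given for genes called in any test and for the gene of highest mean CPM in each role; up to 4 jointly called genes per companion list are named. SLC30A2, SLC39A13 and the marker genes were picked out after their values were seen. Alternatives were other scalings and filters, DESeq2 1.42.0, the replicate number as a block, counts halved, only the days compared, replicates numbered 1 of days 3 and 4 left out, and each library left out; fits with per-library GC and length trends removed (15296 genes), with and without the block, were added after the data were seen. Python 3.11.15 and pandas 2.3.3 prepared the tables.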

Additional observations from a re-analysis of the deposited data

How the results depend on the processing

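Of 28 calls of zinc and copper genes, 12 kept direction and threshold under all alternatives that tested the gene: SLC30A4, SLC39A4, SLC39A6 and ATP7B on day 4 relative to day 0, SLC39A8 on day 1, and SLC30A3, SLC30A4, SLC30A10, SLC39A4, SLC39A11, ATP7A and ATP7B in the joint test. SLC30A10 was not tested under the filter of CPM over 1 in 3 libraries, which removed it. Of 714 alternative values, 590 kept the call, 124 lost it and 0 changed direction. The number of genes called on day 1 relative to day 0 was 3, and it was 8 with DESeq2, 7 with the replicate number as a block, 6 without the replicates numbered 1 of days 3 and 4, 5 with only the days compared, 6 with GC and length trends removed and 8 with those and the replicate block; leaving out single libraries gave 2 to 6 (6 without replicate 4 of day 0 or replicate 1 of day 4). For day 2 relative to day 1 (1 call) the same settings gave 5, 4, 3, 3, 5 and 7, counts halved gave 2, and single libraries left out gave 0 to 2 (0 without any library of day 1 or replicate 1 or 2 of day 2, 2 without replicate 4 of day 2 or replicate 1 of day 4). For day 3 relative to day 2 (0 calls) DESeq2 gave 5, no filter, the CPM filter, the replicate block and counts halved 1 each, GC and length trends removed 2, with the block 3, and single libraries left out 0 to 1 (1 without replicate 1 of day 0 or replicate 2 of day 3). Day 4 relative to day 0 (11 calls) gave 5 with only the days compared and 6 to 11 without single libraries (6 without replicate 1 of day 0 or replicate 2 or 4 of day 4, 7 without replicate 2 of day 0). The joint test (13 calls) gave 20 with trends removed and the replicate block, and 8 to 13 without single libraries (8 without replicate 2 of day 0 or of day 1). Day 4 relative to day 3 gave 0 throughout. Apart from single libraries left out, calls over all genes shifted in the same direction under these settings: 2041 to 3203 on day 1, against 1806 as reported, 1518 to 3185 on day 2 (1439), 181 to 1268 on day 3 (165), 4082 on day 4 relative to day 0 (5948) and 8878 in the joint test (6498). With single libraries left out, calls over all genes numbered 1036 to 2639 on day 1, 612 to 1629 on day 2 and 5 to 247 on day 3, of 17695 to 17821 tested. Day 4 relative to day 0 then had 4051 to 6640 and the joint test 5189 to 7040. The fits with 0 zinc and copper genes called on day 2 called 612 to 858 of all genes. Those with 6 called on day 4 relative to day 0 called 4051 to 4602. The cause was not tested. Whether the replicate numbers pair the days is unsettled: the labels do not say, 22 of 30 correlations between deviations of same-numbered libraries were over 0.1 (−0.37 to 0.761), and 11 of 15 libraries were closest to their own number; not all pairs passed, so the fit without the block was kept as the reported one. The block gave 18 calls in the joint test (8580 over all genes). Low counts limit SLC30A4 on day 0, SLC30A10, SLC39A2, SLC39A5 and SLC39A12.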
